A study of Mus musculus with 6 samples.

Results

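Prg4-rich fibroblasts are collagen-expressing cells of the injured mouse enthesis that held 5 or more UMIs of Prg4, and they were examined as candidates for the lining layer of the synovium. A barcode was selected on counts of unique molecular identifiers (UMIs, each standing for 1 captured transcript) in the 6 deposited matrices. It had at least 2000 UMIs, at least 200 genes and at most 10% mitochondrial UMIs. Col1a1, Col1a2 and Col3a1 together made up at least 0.5% of its UMIs, and S100a8 and S100a9 together less than 1%. It held no UMI of Ptprc (leukocytes), Cdh5 (endothelium) or Tnmd (mature tenocytes), fewer than 10 of Cxcl5 and Saa3, fewer than 5 of Col2a1, fewer than 2 of the division genes Mki67 and Top2a, and at least 5 of Prg4. These terms found 1098 barcodes among 64599 that passed the quality limits, and among 6095 fibroblasts that passed every term other than the one on Prg4. Of the others, 3804 held no Prg4 UMI and are called Prg4-zero fibroblasts, and 1193 held 1 to 4.

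The wild-type controls were adult C57BL/6 mice and the other animals carried a global knockout of Nlrp3 (Nlrp3-/-). Nlrp3 encodes the sensor of an inflammasome, the complex that activates caspase-1 and releases mature IL-1β. In both groups the supraspinatus tendon was cut close to the bone, what remained of the enthesis was debrided, and the tendon was sutured back through bone tunnels. The enthesis was taken 7 days after injury, with no uninjured group analysed here. Each genotype had 3 libraries of droplet single-cell RNA sequencing, entheses were pooled, and the number of animals per library was not given in the sources used here. The genotype field names Nlrp4 and Nlrp5 for Nlrp3-/- libraries 2 and 3, while their titles name Nlrp3. Nlrp3 itself gave 6026, 11825 and 9150 UMIs over the quality barcodes of the wild-type libraries and 0 in each Nlrp3-/- library. Total UMIs ranged from 97042713 to 134901999 per library. Among the members described below, Xist was read only in the Nlrp3-/- libraries and Y-linked genes almost only in the wild-type libraries, so that sex and genotype cannot be told apart. The paper names different suppliers for the wild-type and the Nlrp3-/- mice and mentions no littermates. The source of the animals and genotype therefore cannot be told apart either.

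Prg4 encodes lubricin, a secreted mucin-like glycoprotein that coats cartilage, tendon and synovial surfaces and lets them glide. The synovial membrane has a thin lining layer of fibroblasts and macrophages that secretes lubricin and hyaluronan into the joint fluid, above a vascular sublining whose fibroblasts carry Thy1. Superficial cartilage and tendon sheath cells also make lubricin, so that Prg4 by itself does not mark the lining.

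Prg4-rich fibroblasts numbered 87, 163 and 161 in wild-type libraries 1 to 3 and 118, 197 and 372 in Nlrp3-/- libraries 1 to 3. They made up 16.7% (95% Wilson interval 13.7 to 20.1), 16.8% (14.6 to 19.3) and 29.0% of the fibroblasts in the wild-type libraries, and 6.53% (5.48 to 7.77), 28.9% (25.6 to 32.4) and 23.9% (21.8 to 26.0) in the Nlrp3-/- libraries. The lowest and the second highest share both belonged to the Nlrp3-/- group, and the groups overlapped. The mean share was 20.8% ± 7.06 (SD, n = 3) in wild-type controls and 19.8% ± 11.7 (SD, n = 3) in Nlrp3-/- mice, a difference of -1.05 percentage points (exact two-sided permutation test, p = 0.9; the smallest p that 3 libraries against 3 allow is 0.1). Leaving out wild-type library 3 or Nlrp3-/- library 1 turned the difference positive (3.02 and 5.56 percentage points). The intervals cover counting error only.

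**Figure D1:**
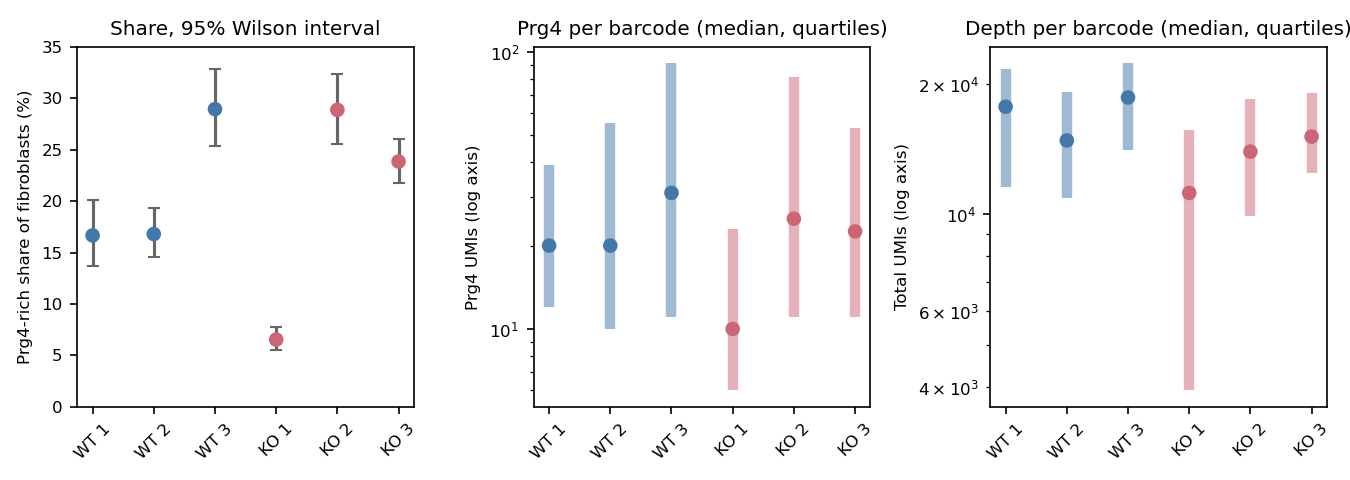
Share of fibroblasts (percent, with 95% Wilson intervals), Prg4 UMIs per member and total UMIs per member (points are medians, bars are quartiles) in each of the 6 libraries, grouped by genotype. The share is lowest in Nlrp3-/- library 1 (6.53%), where the median member also held the fewest Prg4 UMIs (10).

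Members were deeply read barcodes. Their median was 17709, 14807 and 18598 UMIs in the wild-type libraries and 11204, 13953 and 15111 in the Nlrp3-/- libraries, with 3275 to 4285 genes. The Prg4-zero fibroblasts of the same libraries had medians of 10957, 9440.5 and 13926.5 UMIs and of 3355.5, 10847 and 10786.5 UMIs, lower in every library. Nlrp3-/- library 1 stood apart: 37 of its 118 members (31.4%) held fewer than 5000 UMIs, against 2 to 13 members in each other library. With every barcode thinned to 2000 UMIs and the limit on Prg4 lowered from 5 to 2 UMIs, changes made together, the difference in share was 2.00 percentage points (exact permutation test, p = 0.8). No member barcode occurred among the members of another library, and 0 to 5 members per library carried a barcode that passed the quality limits in another.

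Prg4, the gene that chose the members, varied widely among them. The median member held 20, 20 and 31 Prg4 UMIs in the wild-type libraries and 10, 25 and 22.5 in the Nlrp3-/- libraries, and the highest held 286 to 2119. Over all members Prg4 was at 2129, 5032 and 4483 CPM (the UMIs of a gene per 1000000 UMIs summed over the members of a library) in wild-type controls and at 4015, 6161 and 3886 CPM in Nlrp3-/- mice. The means were 3881 ± 1542 and 4687 ± 1278 CPM (SD, n = 3), and wild-type library 1 was the lowest of the 6. Members held between 9.03% and 36.9% of the Prg4 UMIs of the quality barcodes of their library, the lowest again in wild-type library 1. Just outside the limit, 16, 18 and 5 wild-type and 28, 24 and 29 Nlrp3-/- fibroblasts held 4 Prg4 UMIs, and just inside it 1, 14 and 8 and 23, 13 and 19 held 5. In Nlrp3-/- library 1 those at the edge had medians of 3928.5 and 3978 UMIs.

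Prg4 RNA was also found in droplets that should lack it. Among neutrophil barcodes, which had S100a8 and S100a9 at 5% or more of UMIs and medians of 3480 to 5041.5 UMIs, 2.92% to 9.88% held a Prg4 UMI and 0.374% to 0.810% held 5. Among macrophage barcodes (10 or more C1q UMIs, medians of 5304 to 8174 UMIs) 1.03% to 10.5% held a Prg4 UMI and at most 0.230% held 5. Fibroblasts held a Prg4 UMI in 22% to 52.6% of barcodes, and 5 or more in 6.53% to 29.0%, above both other cell types in every library. Their median was 3427 UMIs in Nlrp3-/- library 1 and 10634 to 15056 UMIs in the others, where it was above both other cell types. The limits are fixed UMI counts, which were applied to cell types of different depth.

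The first question was whether these cells had the genes of the synovial lining. Both classes were selected on Prg4 in the same libraries, so the comparison with Prg4-zero fibroblasts describes what went with Prg4 beyond the rule. The genes of the rule were left out of the calls. The comparison used UMIs summed over each class in each library, with the library as a block, in edgeR's quasi-likelihood test with Benjamini-Hochberg adjustment. A gene was called at an adjusted p under 0.05. Of 11075 genes tested, 2049 were higher in members (18.5%) and 1891 lower (17.1%), with a median log2 difference of -0.01 over all genes. The p-values weigh the mean difference between the classes against its variation between libraries, which may be technical. The depth of the classes differed as given above, and with each barcode thinned to 2000 UMIs 1144 of 6850 genes were called, 554 higher and 590 lower.

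Of 10 lining genes 9 were tested, 7 were higher and 0 lower, with a median log2 difference of 1.21. Has1 and Htr2a are among them, and the paper used both with Prg4 as markers of synovial cells in these data. They therefore add no independent support, and Has1 is counted again in the hyaluronan list below. Htra4, a secreted serine protease, was at 3.29, 32.8 and 20.7 CPM in wild-type and 13.0, 18.5 and 10.2 CPM in Nlrp3-/- members. In Prg4-zero fibroblasts it was at 2.71, 2.59 and 2.3 CPM and at 1.38, 7.23 and 2.59 CPM, and members were higher in each library (log2 difference 2.48 ± 0.33 SE, adjusted p = 0.000125). Wild-type library 1 had the lowest Htra4 of the members, within the range of the Prg4-zero libraries, and without mural barcodes (below) the Htra4 difference was 1.33 (adjusted p = 0.00321). Htr2a, a serotonin receptor, had a lowest, median and highest library of 5.26, 13.8 and 15.7 CPM in members and of 1.90, 2.40 and 4.83 CPM in Prg4-zero fibroblasts, without overlap (log2 difference 2.21 ± 0.19, adjusted p = 6.58e-06). Hbegf, an EGF-family growth factor (log2 difference 1.21), Pdpn, the membrane glycoprotein podoplanin (0.78), and Creb5, a transcription factor (0.42), were higher by less. Col22a1, a collagen of tissue junctions, was higher by 3.18 but lost its call when barcodes with a mural UMI were left out (log2 difference 1.35, adjusted p = 0.176), as did Creb5.

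Other lining genes were not called. Cd55, a complement-decay protein often used for the lining, was at 30.2, 61.2 and 30.4 CPM in wild-type and 27.6, 79.0 and 31.1 CPM in Nlrp3-/- members, against 17.7 to 52.3 CPM in Prg4-zero fibroblasts (log2 difference 0.40 ± 0.21, adjusted p = 0.16). The ranges overlapped. Tspan15, a tetraspanin, had a log2 difference of -0.37 (adjusted p = 0.27), and Clic5 was too low to test. The 10 genes summed to 372 to 866 CPM in members and 250 to 342 CPM in Prg4-zero fibroblasts, without overlap.

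Genes of the sublining and of universal fibroblasts moved mostly the other way: of 9 tested, 2 were higher and 6 lower, with a median log2 difference of -1.13. Sfrp1, a secreted inhibitor of Wnt signalling, was at 64.4, 129 and 62.2 CPM in wild-type and 91.8, 111 and 87.4 CPM in Nlrp3-/- members, against 604, 553 and 474 CPM and 325, 241 and 422 CPM in Prg4-zero fibroblasts. Every member library was below every Prg4-zero library (log2 difference -2.16 ± 0.21, adjusted p = 1.35e-05). Cxcl12, a chemokine that retains leukocytes (-1.13), Clec3b, a plasminogen-binding lectin (-1.17), and Pi16, a marker of universal fibroblasts (-1.42), were also lower. Thy1 was lower by 1.22 on the log2 scale, but by 0.34 (adjusted p = 0.0947) without mural barcodes. Ly6a (0.89) and Cd34 (0.66), both used to mark progenitor fibroblasts, were higher, Cd34 no longer so without mural barcodes.

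**Figure D2:**
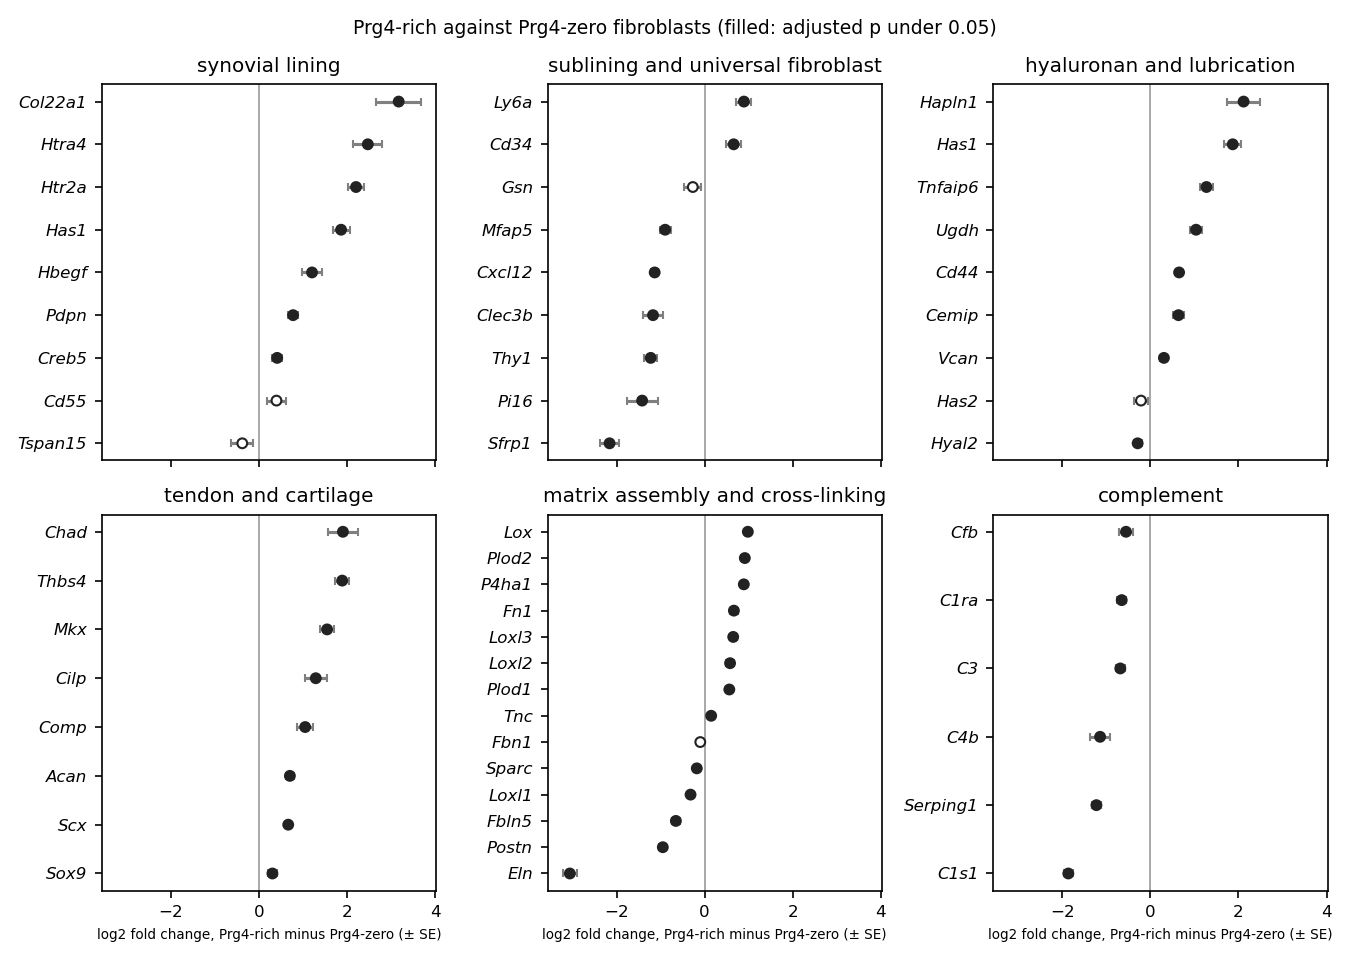
Log2 difference of Prg4-rich minus Prg4-zero fibroblasts (points, with standard errors, from 6 libraries) for the genes of 6 lists, where filled points had an adjusted p under 0.05. All called lining, tendon and cartilage genes lie above 0 and all complement genes shown lie below it.

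The machinery that makes and binds hyaluronan, the other lubricant of the joint, was higher in members. Of 9 genes tested 7 were higher and 1 lower (median log2 difference 0.65). Has1, a hyaluronan synthase of the plasma membrane, was at 48.0, 118 and 200 CPM in wild-type and 68.2, 156 and 77.3 CPM in Nlrp3-/- members. In Prg4-zero fibroblasts it was at 13.0, 17.3 and 81.6 CPM and at 15, 33.8 and 37.1 CPM (log2 difference 1.87 ± 0.19, adjusted p = 2.13e-05). Members were higher within each library, although wild-type library 3 was high in both classes and the ranges overlapped.

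The synthase Has2 did not follow Has1 (log2 difference -0.21, adjusted p = 0.316), and Has3 was nearly unread. Ugdh, which makes the UDP-glucuronate that the synthases use, had a lowest, median and highest library of 116, 182 and 265 CPM in members and 76.4, 87.5 and 124 CPM in Prg4-zero fibroblasts (log2 difference 1.04 ± 0.14, adjusted p = 0.000157). Tnfaip6 (TSG-6), which transfers heavy chains onto hyaluronan, was higher by 1.27, the link protein Hapln1 by 2.12, the receptor Cd44 by 0.65 and Cemip, needed for hyaluronan breakdown, by 0.64. The hyaluronidase Hyal2 was lower by 0.29, and without mural barcodes this call and that of Vcan were lost, which left 6 higher and 0 lower.

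The marker genes given for these cells, Timp1, Dcn and Lox, had been picked with these data in view, so their levels in the classes are described with no test of their own. They are also counted in the lists of proteases and inhibitors (Timp1), small leucine-rich proteoglycans (Dcn) and matrix assembly (Lox), where they add no independent support. Timp1, an inhibitor of metalloproteinases, was at 4614, 4448 and 2834 CPM in wild-type and 2818, 4171 and 2987 CPM in Nlrp3-/- members, and at 698 to 1377 CPM in Prg4-zero fibroblasts. Lox, the lysyl oxidase that cross-links collagen, was at 823, 866 and 1202 CPM and at 921, 917 and 1017 CPM, against 454 to 592 CPM. Both were higher in each member library than in any Prg4-zero library. Dcn, the collagen-binding proteoglycan decorin, ranged from 1650 to 5939 CPM in members and from 767 to 2050 CPM in Prg4-zero fibroblasts, with overlap.

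Of 14 genes of matrix assembly and cross-linking tested 8 were higher and 5 lower (median log2 difference 0.36), and both directions included enzymes and structural proteins. Without mural barcodes 7 were higher and 6 lower (median 0.17), since Tnc lost its call and Fbn1 became lower. The prolyl hydroxylase subunit P4ha1 (0.89), the lysyl hydroxylases Plod1 (0.56) and Plod2 (0.91) and the lysyl oxidases Loxl2 (0.58) and Loxl3 (0.65) were higher, as was Fn1, fibronectin (0.67), whereas the lysyl oxidase Loxl1 was lower (-0.32). Postn, periostin of healing and loaded connective tissue, had a lowest, median and highest library of 1669, 3032 and 3638 CPM in members and 4236, 5702 and 6641 CPM in Prg4-zero fibroblasts, with no overlap (log2 difference -0.95 ± 0.08, adjusted p = 6.23e-06). Eln, elastin, was lower by 3.06 on the log2 scale.

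Of 14 collagens outside the rule, 2 were higher and 6 lower. The basement membrane chains Col4a1 (-2.77) and Col4a2 (-2.44) and the fibril-associated Col14a1 (-1.29) and Col15a1 (-1.86) were lower, and the fibrillar chain Col5a2 was higher (0.38). Without mural barcodes Col4a1 was at -0.62, Col15a1 at -0.85 and Col4a2 at -0.45, the last no longer called (adjusted p = 0.0605 in edgeR's test), and 1 collagen was higher and 6 lower. Of 9 small leucine-rich proteoglycans 4 were higher and 3 lower, with Prelp (0.97) at one end and Podn (-0.82), Ogn (-0.73) and Aspn (-0.44) at the other. Without mural barcodes, 2 were higher and 4 lower, since Lum and Fmod lost their calls and Bgn became lower (-0.21). Among proteases and inhibitors 4 of 13 were higher and 6 lower. Without mural barcodes 4 were higher and 5 lower, with Adamts1 in place of Mmp19 among the higher and Timp3 no longer called. Mmp3, stromelysin, was at 302, 389 and 730 CPM in wild-type and 196, 939 and 467 CPM in Nlrp3-/- members, against 28.2, 70.6 and 63.0 CPM and 44.3, 211 and 136 CPM in Prg4-zero fibroblasts (log2 difference 2.59 ± 0.21, adjusted p = 3.74e-06). Members were higher in every library. Adamts5, an aggrecanase, was higher by 0.90, and the gelatinase Mmp2 (-0.58) and the membrane protease Mmp14 (-0.54) were lower.

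Tendon and cartilage genes were higher in members although barcodes with Tnmd or with 5 or more Col2a1 UMIs had been left out by the rule. All 8 genes tested of 11 were higher (median log2 difference 1.17). Thbs4, a thrombospondin of the tendon matrix, was at 967, 1037 and 2121 CPM in wild-type and 751, 1746 and 1260 CPM in Nlrp3-/- members, against 444, 435 and 354 CPM and 181, 533 and 266 CPM in Prg4-zero fibroblasts. No member library overlapped with a Prg4-zero library (log2 difference 1.89 ± 0.16, adjusted p = 5.66e-06). The tendon transcription factors Mkx (1.55) and Scx (0.67), the cartilage matrix genes Chad (1.91), Cilp (1.29), Comp (1.05) and Acan (0.71), and the chondrocyte factor Sox9 (0.31) were higher, Sox9 no longer so without mural barcodes or without any of 4 libraries. The 11 genes summed to 1586 to 3962 CPM in members and 689 to 1664 CPM in Prg4-zero fibroblasts. Lining genes and tendon and cartilage genes were thus both higher, and the label of synovial lining is met only in part by these barcodes.

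Of 7 complement genes 0 were higher in members and 7 lower (median log2 difference -0.68), or 6 lower without mural barcodes. C1s1, a serine protease of the C1 complex, had a lowest, median and highest library of 38.1, 75.5 and 107 CPM in members and 195, 278 and 334 CPM in Prg4-zero fibroblasts (log2 difference -1.86 ± 0.10, adjusted p = 2.18e-07). Serping1, the C1 inhibitor, was at 133, 267 and 388 CPM against 378, 664 and 806 CPM (-1.23 ± 0.10, adjusted p = 3.52e-06). The central component C3 (-0.68), C4b (-1.14), C1ra (-0.65) and Cfb (-0.55) were lower as well. The Cfb call was lost without wild-type library 1 (0.0659) and without wild-type library 3 (0.058). Immediate-early and heat-shock genes that respond to tissue dissociation were lower in 6 of 10 and higher in 0, among them Fos (-0.73), Jun (-0.49) and Atf3 (-0.98). Without mural barcodes 4 of 10 were lower, since Egr1 and Hspa1a lost their calls.

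Of 23 genes that respond to IL-1 and NF-κB, 11 were higher and 4 lower (median log2 difference 0.19), with Cxcl5 and Saa3 held low by the rule. Ccl2, a monocyte chemoattractant, had a lowest, median and highest library of 187, 324 and 691 CPM in members and 66.5, 129 and 213 CPM in Prg4-zero fibroblasts (log2 difference 1.45 ± 0.11, adjusted p = 2.35e-06). The siderophore-binding protein Lcn2 (1.61), the cytokine Lif (1.39), the cyclooxygenase Ptgs2 (1.14), Sod2 (0.78), the chemokine Ccl7 (0.72) and Il6 (0.63) were higher. The receptor Il1r1 (-0.68), the receptor antagonist Il1rn (-1.23) and the adhesion molecule Icam1 (-0.84) were lower. Without mural barcodes Il1rn, Il33, Csf1, Cxcl1 and Ptges were no longer called. Of 6 inflammasome genes tested, the adaptor Pycard (-0.49) and the pore-forming Gsdmd (-0.67) were lower and none was higher. Casp1 was also called lower without mural barcodes.

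Of 19 genes of TGF-β, BMP and Wnt signalling tested, 7 were higher and 6 lower. Without mural barcodes 8 were higher and 8 lower, with Smad7 newly higher and Dkk2 and Dkk3 newly lower. Inhba, the subunit of activin A, was at 169, 314 and 531 CPM (lowest, median and highest library) in members and 17.4, 53.9 and 106 CPM in Prg4-zero fibroblasts, without overlap (log2 difference 2.55 ± 0.23, adjusted p = 8.81e-06). Bmp2 (1.48), Ltbp2 (0.96), the TGF-β-induced matrix protein Tgfbi (0.90) and Tgfb2 (0.61) were higher. The Wnt modulators Sfrp2 (-2.68) and Rspo3 (-1.37) and the bridging ligand Gas6 (-0.80) were lower.

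The genes with the largest differences included several outside these lists. Nos2, the inducible nitric oxide synthase, was higher by 3.71, the EGF-family ligand Ereg by 3.39, AA467197 by 3.35, the cytokine Il11 by 3.05, the cytidine deaminase Cda by 2.53 and the chemokine Ccl5 by 2.52. Nos2 was uneven, at 3.95 to 64.7 CPM in members and 0.230 to 5.14 CPM in Prg4-zero fibroblasts, with overlap. Ereg overlapped too (5.26 to 109 CPM against 0.867 to 6.21 CPM), while AA467197, Il11, Cda and Ccl5 did not. Il1rl1, the receptor of IL-33, had a lowest, median and highest library of 42.0, 99.7 and 114 CPM in members and 9.53, 14.2 and 18.6 CPM in Prg4-zero fibroblasts (log2 difference 2.62 ± 0.13, adjusted p = 1.65e-07). The Il1rl1 ranges lay well apart.

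At the other end stood genes of pericytes and smooth muscle, from Higd1b (-5.33), Rgs5 (-4.77), Kcnj8 (-4.72) and Abcc9 (-4.70) to Myh11 (-4.17). The 5 mural markers summed to 358 to 934 CPM in members and 1762 to 3125 CPM in Prg4-zero fibroblasts, and a UMI of Rgs5, Myh11 or Notch3 was held by 11.2% to 17.2% of members and 16.3% to 35.6% of Prg4-zero fibroblasts. With those barcodes left out of both classes, an alternative chosen after seeing the data, 3095 of 10434 genes were called, 1608 higher and 1487 lower (14.3%), and the lining list had 5 higher and 0 lower of 8. The log2 difference of Eln was then -3.16, with C1s1 at -1.83, Thbs4 at 1.63 and Sfrp1 at -2.41.

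Markers of other cells were also read in members. The 12 macrophage markers summed to 176 to 570 CPM in members (123 to 2046 CPM in Prg4-zero fibroblasts), the 6 neutrophil markers to 95 to 350 CPM (125 to 320 CPM) and the 5 endothelial markers to 1.67 to 15.4 CPM (23.2 to 46.4 CPM). The macrophage sum was higher in members than in Prg4-zero fibroblasts in wild-type library 3 (176 against 123 CPM) and Nlrp3-/- libraries 2 (275 against 171 CPM) and 3 (570 against 520 CPM), and it exceeded the members' own lining sum in Nlrp3-/- libraries 1 (529 against 478 CPM) and 3 (570 against 434 CPM). The neutrophil sums of the classes were close in every library but Nlrp3-/- library 1 (95 against 195 CPM). The part of these cells in the results was not tested. The 5 erythroid markers summed to 4.01 to 31.1 CPM in members, the 4 T cell markers to 0.334 to 8.12 CPM and the 4 muscle markers to 1.00 to 25.6 CPM, with Ckm and Myod1 at 0 in all member libraries. Of the osteoblast genes 3 were tested, and Alpl (-3.50) and Ibsp (-2.55) were lower. Among these lists members were called higher only for Cspg4 (0.46), counted with the mural markers.

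Within the members, some other genes followed the level of Prg4. The members were divided into those with 5 to 9 Prg4 UMIs (255 barcodes), 10 to 49 (540) and 50 or more (303). These groups were cut on Prg4 and differ in depth, with library medians of 5066 to 15236, 12645.5 to 17764 and 14136 to 22195 UMIs, so they are described with no test. The bottom group held 16 to 79 barcodes per library, so that CPM near 0 there rest on few UMIs. From the bottom to the top group the median library rose from 0 to 35.6 CPM for Htra4, from 4.11 to 24.1 CPM for Htr2a, from 0 to 15 CPM for Tspan15 and from 106 to 284 CPM for Ugdh. The order held in 6 of 6 libraries for each of these, and in 5 of 6 for Has1 (77.7 to 205 CPM), Cd55 (35.1 to 62.1 CPM) and Clic5 (0 to 11.9 CPM). Tspan15 was nonetheless not called higher in members than in Prg4-zero fibroblasts, as given above. Hbegf (92.3 to 201 CPM), Pdpn (96.7 to 192 CPM) and Col22a1 (0 to 41.1 CPM) were higher at the top in 5 of 6 libraries and Creb5 in 4. Of the 10 lining genes 3 were thus higher in the top group in all 6 libraries, against 5.65% of all 11075 genes tested (5.45% were lower in all 6), and the summed level of the list in wild-type library 1 was lower at the top (424 CPM) than at the bottom (493 CPM).

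Timp1 (1800 to 5654 CPM), Dcn (2199 to 4587 CPM), Mmp3 (96.2 to 878 CPM), Inhba (115 to 515 CPM) and Lcn2 (38.1 to 228 CPM) were also higher in the top group in 6 of 6 libraries. Postn (4513 to 923 CPM), Sfrp2 (156 to 14.8 CPM), Sfrp1 (155 to 31.3 CPM), Aspn (2532 to 991 CPM), Col14a1 (365 to 90.4 CPM), Cxcl12 (346 to 131 CPM) and Serping1 (538 to 153 CPM) were lower in 6 of 6. By list, 9 of 14 collagens outside the rule and 4 of 7 complement genes were lower in all 6 libraries and 0 higher. Over all genes tested 5.45% were lower in all 6. Thbs4 showed no such order, with 1044 CPM in the bottom and 1367 CPM in the top group and a higher top group in 3 of 6 libraries. Members with 5 to 9 Prg4 UMIs therefore had Postn, Aspn and Sfrp2 levels far above those with 50 or more, and little Htra4.

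**Figure D3:**
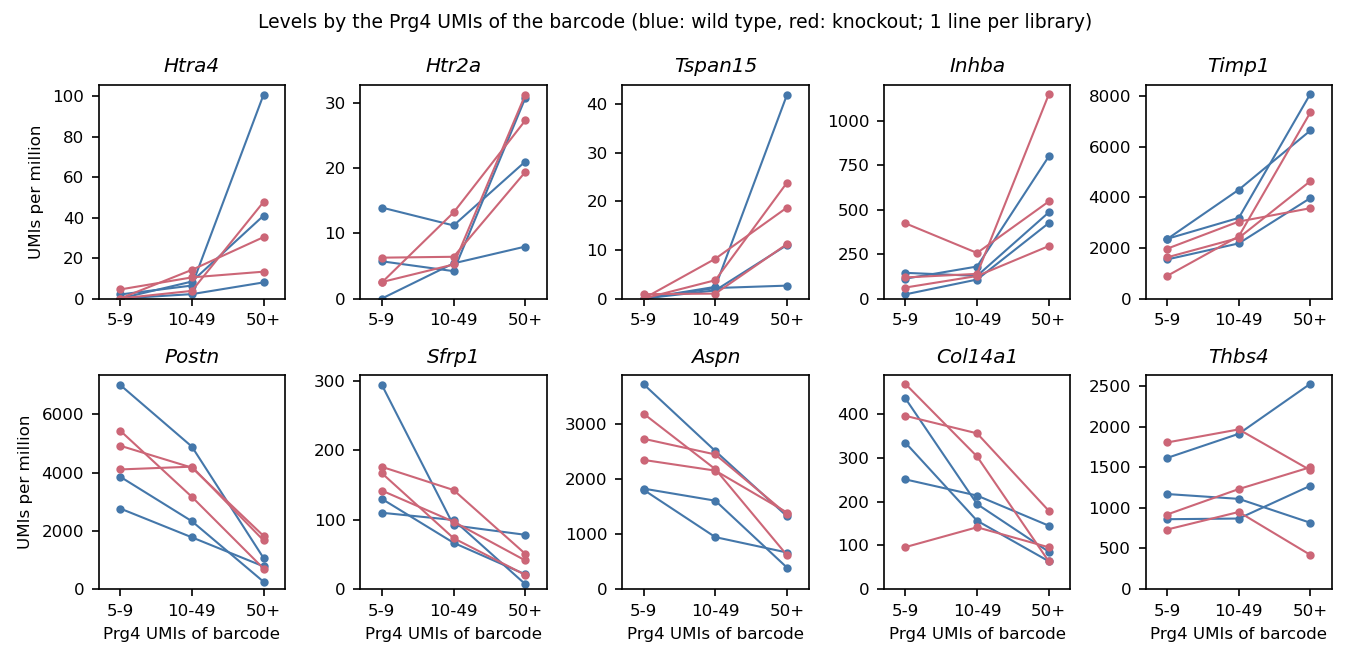
CPM of 10 genes in members with 5 to 9, 10 to 49 and 50 or more Prg4 UMIs, with a line for each of the 6 libraries (blue for wild type, red for Nlrp3-/-; linear axes from 0). Htra4, Htr2a, Tspan15, Inhba and Timp1 were higher, and Postn, Sfrp1, Aspn and Col14a1 lower, in the top group than in the bottom group of every library, and Thbs4 showed no shared order.

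Several terms removed many barcodes with Prg4. That on Cxcl5 and Saa3 removed 125, 180 and 62 in the wild-type and 26, 129 and 167 in the Nlrp3-/- libraries. The term on Tnmd, applied next, removed 66, 74 and 94 and 29, 137 and 182. The division term, applied last, removed 35, 46 and 70 and 29, 40 and 86. Shares were taken among fibroblasts with 5 or more Prg4 UMIs that had passed the terms on collagen, S100a8 and S100a9, Ptprc and Cdh5. Of these, 38.6%, 38.7% and 15.9% held 10 or more Cxcl5 and Saa3 UMIs in the wild-type libraries, and 12.2%, 23.5% and 20.6% in the Nlrp3-/- libraries. The means were 31.0% ± 13.2 and 18.8% ± 5.89 (SD, n = 3; exact two-sided permutation test, p = 0.3), and the groups overlapped. The limit is a fixed UMI count, which was applied to libraries of different depth. The barcodes with 10 or more Cxcl5 and Saa3 UMIs that passed every other term numbered 75, 93 and 38 and 10, 77 and 98. They were chosen by the same counts, and their gene levels are described with no test.

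These Cxcl5 and Saa3 barcodes held more Il6 (median library 381 CPM, against 52.1 CPM in members), Ccl7 (909 against 287 CPM), Ccl2 (877 against 324 CPM) and Mmp3 (1637 against 428 CPM), each higher in 6 of 6 libraries. Cilp (32.3 against 191 CPM) and Fn1 (3225 against 5421 CPM) were lower in 6 of 6. Genes described above as higher in members were not all highest there: Timp1 (5937 against 3579 CPM), Lox (1260 against 919 CPM), Pdpn (174 against 137 CPM) and Htr2a (20.3 against 13.8 CPM) were also higher in the Cxcl5 and Saa3 barcodes in 6 of 6 libraries. Of the other lining genes, Creb5 was lower there in 6 of 6 (47.5 against 90.9 CPM) and Htra4 higher in only 1 (4.45 against 15.8 CPM). When they were kept among the members, the difference in share between the genotypes was 1.12 percentage points (exact permutation test, p = 1), against -1.05 with the term.

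The second question was what differed in Prg4-rich fibroblasts between the Nlrp3-/- and the wild-type libraries. Nlrp3 gave 45 UMIs in all wild-type members (1.32, 10.9 and 5.35 CPM) and 0 in Nlrp3-/- members, at least 21.8-fold lower against a floor of 3 UMIs over the group. Of 10402 genes tested across the 3 libraries of each genotype, 16 were called (0.154%), 7 higher and 9 lower in Nlrp3-/- mice (edgeR's quasi-likelihood test, Benjamini-Hochberg), and 1031 had an unadjusted p under 0.05. Called genes on the sex chromosomes were Xist, Tsix and Eif2s3x, higher, and Ddx3y, Eif2s3y, Uty and Kdm5d, lower. Xist was at 737, 782 and 700 CPM in Nlrp3-/- members and 0 in wild-type members, and Ddx3y at 48.7, 51.9 and 59.2 CPM in wild-type members and 0 in Nlrp3-/- members. No gene of the lining, sublining, hyaluronan, matrix, protease, tendon, complement or IL-1 lists was called by this test.

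Calls outside the sex chromosomes included 2 genes of the circadian clock. Dbp, a PAR bZIP transcription factor driven by the clock, was at 55.9, 68.1 and 93.3 CPM in wild-type and 7.31, 6.64 and 7.93 CPM in Nlrp3-/- members. The groups were far apart, and the spread among Nlrp3-/- libraries was small (log2 difference -3.41 ± 0.23, adjusted p = 0.000155). Over the alternatives that gave it an adjusted p, which DESeq2 with independent filtering did not, it ranged from -3.55 to -3.15 with adjusted p of at most 0.0041. Arntl (BMAL1), the activator that forms the core of the clock with CLOCK, was at 7.23, 8.10 and 3.34 CPM in wild-type and 30.1, 43.3 and 27.6 CPM in Nlrp3-/- members (log2 difference 2.36 ± 0.33, adjusted p = 0.0296). The Arntl groups did not overlap, but the adjusted p was 0.101 without wild-type library 1 and 0.126, 0.0931 and 0.0631 without Nlrp3-/- libraries 1, 2 and 3.

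Other clock genes, looked at after Dbp and Arntl had been seen, were not called. The log2 differences were -1.15 for Nr1d1 (adjusted p = 0.23), -1.53 for Nr1d2 (0.14) and -1.34 for Per3 (0.33), and 1.03 for Clock (0.33). The genotypes did not overlap for 7 of the 13 tested, which were these 4 with Tef, Cry1 and Npas2, against 18.6% of all genes tested. The time of day of tissue collection was not given in the sources used here. Prg4-zero fibroblasts had Dbp at 48.8, 37.3 and 59.1 CPM in wild-type and 5.39, 8.09 and 7.35 CPM in Nlrp3-/- libraries, the same order as the members.

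The promoters of Arntl and Per3 hold elements through which clock factors act, and they are shown as examples. E-boxes were also found at Tef, Per1, Cry1, Ciart and Bhlhe41, and a ROR element at Nfil3, which are not shown. They are RefSeq sequences of GRCm38.p6, each 300 bases from 250 before to 50 after a start site, at chr7:113207261-113207560 (plus strand) for Arntl and chr4:151044616-151044915 (minus strand) for Per3. Capitals mark a ROR element (TAGGTCA), 30 bases after the Arntl start, and D-boxes (TTATGTAA), 205 and 158 bases before the Per3 start. The D-box is the element that Dbp binds.
Arntl: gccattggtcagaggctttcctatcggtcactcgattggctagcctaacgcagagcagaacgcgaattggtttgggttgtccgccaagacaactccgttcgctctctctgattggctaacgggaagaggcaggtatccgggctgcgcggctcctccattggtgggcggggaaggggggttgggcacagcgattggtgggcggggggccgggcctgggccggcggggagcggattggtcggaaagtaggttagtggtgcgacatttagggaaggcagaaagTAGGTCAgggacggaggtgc
Per3: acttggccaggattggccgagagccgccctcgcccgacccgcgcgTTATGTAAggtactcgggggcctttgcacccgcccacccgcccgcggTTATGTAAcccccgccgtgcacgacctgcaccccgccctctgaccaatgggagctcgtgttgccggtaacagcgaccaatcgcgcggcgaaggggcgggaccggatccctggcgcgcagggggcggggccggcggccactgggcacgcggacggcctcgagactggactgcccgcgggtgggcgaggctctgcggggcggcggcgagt
Both strands were searched for the E-box CACGTG, the ROR element as TAGGTCA or TGGGTCA and the D-box as TTATGTAA or TTACGTAA. Of 32851 mouse promoters of this length, 7.15% held the E-box, 6.45% the ROR element and 1.06% the D-box. The Dbp promoter (chr7:45704997-45705296, plus strand) and the other listed start of Arntl held none of these letters. Nor did the listed starts of Clock, Npas2, Hlf, Nr1d1, Nr1d2 and Cry2 or the other listed start of Per1. A match describes the sequence only.

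Further called genes lay on the autosomes. Thg1l, a tRNA-histidine guanylyltransferase on chromosome 11 (45946843 to 45955494), was at 3.29, 3.65 and 6.35 CPM in wild-type and 27.6, 27.3 and 26.9 CPM in Nlrp3-/- members (log2 difference 2.43 ± 0.26, adjusted p = 0.00405). Lyrm7, a mitochondrial complex III assembly factor on chromosome 11 (54826866 to 54860916), was lower by 5.52 on the log2 scale (adjusted p = 0.0128), and its adjusted p was 0.0753 to 0.191 when wild-type library 1 or any Nlrp3-/- library was left out. Nlrp3 lies on the same chromosome (59541568 to 59566956). Both genes had been named by an earlier look at these data, as had Tpm3-rs7.

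Tpm3-rs7, a tropomyosin-related gene on chromosome 14, was at 99.3, 50.6 and 100 CPM in wild-type and 0.812, 2.1 and 1.16 CPM in Nlrp3-/- members (log2 difference -5.96 ± 0.39, adjusted p = 0.000141). It is close in sequence to Tpm3, and how reads were shared between them was not tested. Wdfy1, an endosomal adaptor on chromosome 1, was at 49.3, 46.6 and 52.2 CPM in wild-type and 16.2, 15 and 17.3 CPM in Nlrp3-/- members (log2 difference -1.71 ± 0.16, adjusted p = 0.00212). The groups did not overlap for either gene. The wild-type libraries were spread for Tpm3-rs7 and close together for Wdfy1. The calls of Dbp, Thg1l, Tpm3-rs7 and Wdfy1 held under every alternative that gave an adjusted p.

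Jchain, the joining chain of polymeric antibodies and not a fibroblast gene, was at 0.658, 0.405 and 0.669 CPM in wild-type and 16.2, 10.8 and 6.11 CPM in Nlrp3-/- members (log2 difference 3.94 ± 0.59, adjusted p = 0.0413). In the droplets of lowest count, which hold free RNA, Jchain was at 31.2 to 124 CPM in the wild-type and 188 to 617 CPM in the Nlrp3-/- libraries. The part of free RNA in the Jchain difference was not tested. The Jchain call was lost when wild-type library 1 or 2 or Nlrp3-/- library 1 or 2 was left out (adjusted p 0.129 to 0.218). The predicted genes Gm8797 (3.44) and Gm42031 (-5.51) complete the list of calls.

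**Figure D4:**
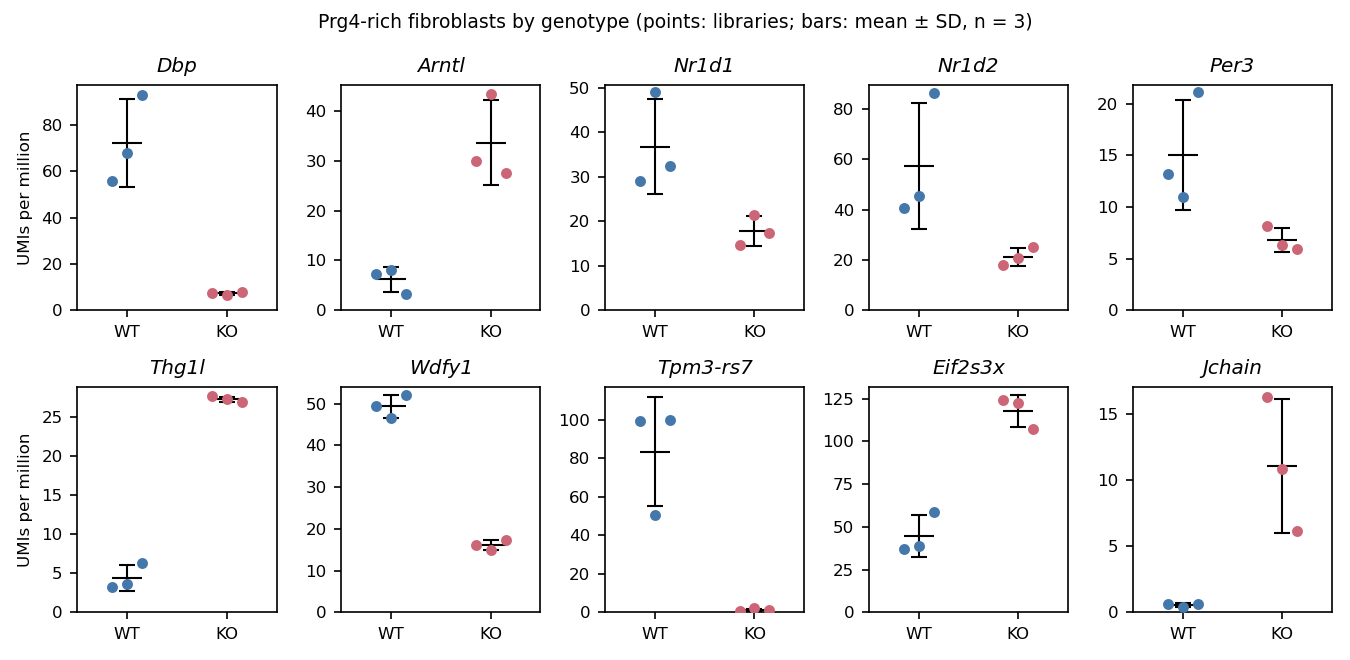
CPM in members of each library (points), with the mean and SD of 3 libraries per genotype, for 10 genes. Dbp, Wdfy1 and Tpm3-rs7 were lower and Arntl, Thg1l, Eif2s3x and Jchain higher in Nlrp3-/- members, with no overlap between the genotypes.

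Genes that respond to IL-1 were of interest because the inflammasome releases IL-1β. None of the 23 was called in members, and the median log2 difference was 0.15, against 0.02 over all genes. The rule had removed Prg4 barcodes with 10 or more Cxcl5 and Saa3 UMIs. These were a mean of 31.0% of the Prg4 barcodes in wild-type and 18.8% in Nlrp3-/- libraries, with overlap, as given above. They held more Il6, Ccl7 and Ccl2 than members. With them kept, the genotype test called 16 genes in all, 15 of them among the calls given above. The values given here cover only the barcodes that were left. The libraries of the genotypes did not overlap for 4 of the 23, Ccl7, Lif, Nfkbiz and Il1rap, while 18.6% of all genes tested showed no overlap. Ccl7, a chemoattractant for monocytes, was at 176, 226 and 154 CPM in wild-type and 349, 364 and 362 CPM in Nlrp3-/- members, the higher group being the knockout (log2 difference 0.84 ± 0.18, adjusted p = 0.253). Lif was at 1.32, 3.24 and 9.03 CPM and at 17.1, 14 and 13.7 CPM (1.43 ± 0.45, adjusted p = 0.431). Il6 was at 25.6, 21.5 and 57.2 CPM and at 82.9, 95.4 and 46.9 CPM, with overlap (0.94 ± 0.37, adjusted p = 0.466). The summed macrophage markers of the same members were 176 to 474 CPM in wild-type and 275 to 570 CPM in Nlrp3-/- libraries, and their part in these values was not tested. Ccl7 was called by DESeq2 (log2 difference 0.82, adjusted p = 0.0141) and by edgeR with no filter on low counts (0.84, adjusted p = 0.00904). DESeq2 gave an adjusted p to 708 genes only, and none to 15 of the 16 calls above. Without wild-type library 3, Il6 (1.51, adjusted p = 0.0482) and Lif (2.40, adjusted p = 0.0286) were called, as were 211 genes in all.

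**Figure D5:**
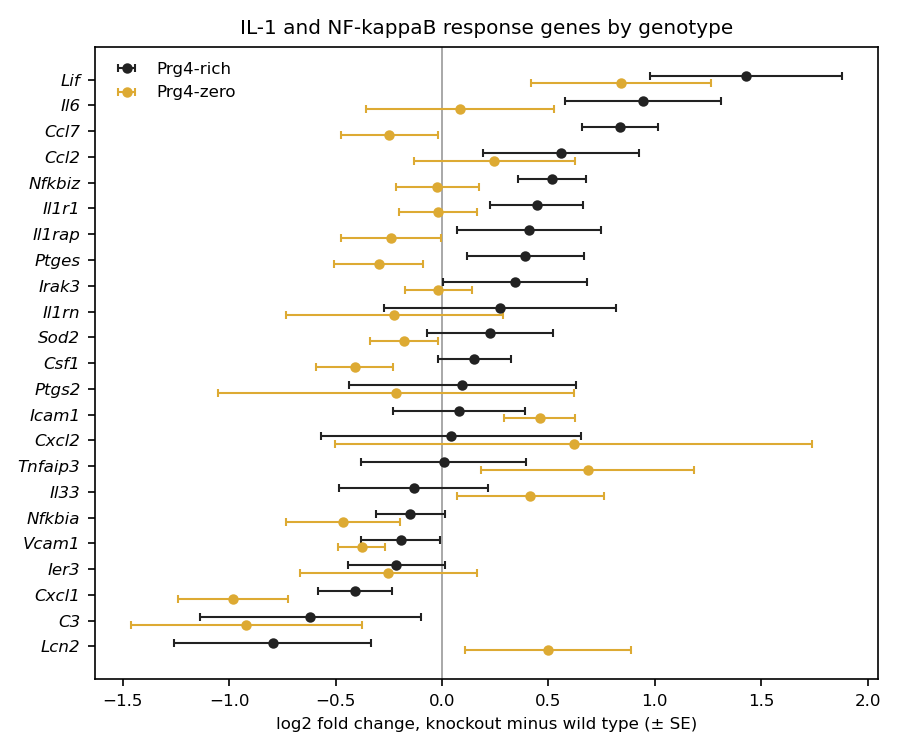
Log2 difference of Nlrp3-/- minus wild type (points, with standard errors, 3 libraries per genotype) for 23 IL-1 and NF-κB response genes in Prg4-rich and in Prg4-zero fibroblasts. None had an adjusted p under 0.05 in either class in this test.

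Has1, Timp1 and Mmp3, which differed between the classes, were not called between the genotypes. Has1 in members had a mean of 122 ± 76.1 CPM in wild-type and 101 ± 48.4 CPM in Nlrp3-/- mice (SD, n = 3; log2 difference -0.40 ± 0.44, adjusted p = 0.77). Timp1 had 3965 ± 983 and 3325 ± 737 CPM (-0.38 ± 0.25, adjusted p = 0.609), and Mmp3 had 474 ± 226 and 534 ± 376 CPM (0.06 ± 0.48, adjusted p = 0.976). The median log2 difference was -0.17 over the lining, 0.11 over the hyaluronan, 0.34 over the tendon and cartilage and -0.04 over the complement list. It was -0.45 over the sublining and universal fibroblast list, and -0.42 over that list in Prg4-zero fibroblasts.

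Whether a genotype difference in members departed from that in Prg4-zero fibroblasts was tested by the interaction of class and genotype. Of 11787 genes 1 was called (0.00848%), and 472 had an unadjusted p under 0.05. It was Hbb-bs, β-globin of red cells, at 9.86, 2.84 and 1.67 CPM in wild-type and 7.31, 15.7 and 5.95 CPM in Nlrp3-/- members. In Prg4-zero fibroblasts it was at 8.14, 4.83 and 1.38 CPM and at 99.1, 396 and 91.4 CPM, so that the high values were in the Prg4-zero class of the Nlrp3-/- libraries (interaction -4.18 ± 0.45, adjusted p = 0.0243). Free RNA held Hbb-bs at 687, 117 and 283 CPM in wild-type and 829, 1431 and 406 CPM in Nlrp3-/- libraries, and its part in the difference was not tested. The call was lost without wild-type library 1 and without wild-type library 3, when 0 genes were called and 501 and 560 had an unadjusted p under 0.05.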

How the data were processed

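The deposited files were, per sample, raw 10x Genomics matrices of UMI counts for 32285 genes, which the authors made with Cell Ranger (version 2.1.1 and mm10 in the submitters' processing notes, while the file headers name Cell Ranger 4). The count matrices were not filtered for cells, and the step that removed doublets, if any, was not given in the sources used here. Barcodes were selected on UMI counts as the report states. The members, gene lists and comparisons were chosen with earlier results of these data known, so that no list is independent evidence, and the list of genes called in several cell types came from such results.

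UMIs were summed per library and class, since cells are not replicates, and fitted with edgeR 4.0.16 and limma 3.58.1 in R 4.3.3 (TMM, filterByExpr, glmQLFit, glmQLFTest, threshold 0.05). The genotype fit had no block, and the class and interaction fits had the library as a block. The study names Student's t test for its single-cell gene set scores, without stating the unit compared, and that test was not used here. Genes of the rule and mitochondrial genes were left out of calls. Shares were compared by an exact permutation test over 20 assignments (SciPy 1.17.1), with 95% Wilson intervals. Genes were named by a rule: up to 10 in each direction with the largest log2 difference among those called, with a mean of at least 20 CPM in either group and no overlap (genotype) or 1 direction in all 6 libraries (class). Genes of 23 lists were named whatever their result, and Jchain, predicted genes and clock genes other than Dbp and Arntl after their values had been seen. Some genes that these rules would name are not reported here.

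Alternatives were DESeq2 1.42.0, RLE size factors, all genes with a UMI in place of filterByExpr, a mitochondrial limit of 5%, Prg4 at 0.1% of UMIs, no Cxcl5 and Saa3 term, another comparator or denominator, thinning to 2000 UMIs (for the share, with the Prg4 limit lowered to 2 UMIs), other blocks, leaving out each library, and removal of the barcodes with the highest Scrublet scores (scanpy 1.11.5) at 0.8% per 1000 barcodes, since automatic thresholds marked 1 and 0 barcodes in Nlrp3-/- libraries 1 and 2. This removed 2 to 19 members per library. A minimum of 5000 UMIs, removal of mural barcodes and DESeq2 without independent filtering were added after seeing the data. Same-numbered libraries of the genotypes did not deviate together (correlations of 0.049, 0.090 and -0.022), so replicate numbers were not taken as pairs. The edgeR step was tested on simulated counts. Promoters came from RefSeq (GRCm38.p6), and gene positions from GENCODE M21 on GRCm38.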

Additional observations from a re-analysis of the deposited data

Results flagged for a closer look

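Hbb-bs was flagged because the genotype difference in Prg4-rich fibroblasts departed from that in Prg4-zero fibroblasts of the same libraries (interaction -4.18 on the log2 scale, adjusted p = 0.0243 in edgeR's quasi-likelihood test). The high values lay in the Prg4-zero class, as given above.

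For 3 of the 228 listed and named genes searched (1.32%) the difference between Prg4-rich and Prg4-zero fibroblasts had one sign in every wild-type library and the opposite sign in every Nlrp3-/- library. On the log2(CPM + 1) scale, the mean difference for Adamts1, an aggrecan-cleaving protease, was -0.44 in wild-type and 0.25 in Nlrp3-/- libraries, a change of 0.692. For Nfkbiz, an atypical IκB protein, it was -0.19 and 0.39, a change of 0.581, and for Jchain it was -0.79 and 0.50, a change of 1.29. The signs themselves were not tested, and such a split was found for 151 of all 11075 genes tested (1.36%), close to the share among the genes searched. The interaction test of the same genes gave adjusted p = 0.715 for Adamts1 and 1 for Nfkbiz and Jchain. No group had the 4 or more libraries that a check for single outlying libraries needs.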

How the results depend on the processing

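The difference in share (-1.05 percentage points) changed sign with no Cxcl5 and Saa3 term (1.12), with Prg4 at 0.1% of UMIs (1.64), over all quality barcodes (0.641) and after thinning with the Prg4 limit lowered from 5 to 2 UMIs (2.00), and ranged from -5.61 to 5.56 when 1 library was left out (3.02 without wild-type library 3 and 5.56 without Nlrp3-/- library 1). It kept its sign in the other 3 alternatives (-0.252 to -1.48).

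The genotype comparison called 16 genes, 193 with no filter on low counts, 51 by DESeq2 (which gave 708 genes an adjusted p, and none to 15 of the 16 calls) and 40 by DESeq2 without independent filtering (all 16 among them). Leaving out 1 library gave 10 to 211 calls, 211 without wild-type library 3 and 10 to 13 without any other. With the replicate block it was 18 calls, 15 of them shared, Eif2s3x being lost (adjusted p = 0.0644) and Nr1d2 gained (0.0227). Eif2s3x was also lost with Prg4 at 0.1% of UMIs (0.081). The causes were not tested. Other alternatives gave 12 to 17 calls.

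Members against Prg4-zero fibroblasts gave 3940 calls, 1144 after thinning (6850 genes tested), 1628 without the library as a block, and 3195 to 3589 with 1 library left out. Over the genes named or listed, 2715 values kept their side of the threshold, 186 lost a call, 60 gained one and 2 changed sign, Tnc (-0.051) and Adamts1 (0.34), both without mural barcodes. For the interaction (1 call), no filter gave 86, DESeq2 gave 6 and leaving out 1 library 0 to 2, and the 1 call after thinning was another gene. Depth limits what 87 to 372 barcodes per library can show, since genes under a few CPM rest on few UMIs.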
